A study of Mus musculus with 8 samples.

Results

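The replication-dependent histone genes code for the core histones H2A, H2B, H3 and H4 and the linker histone H1 that package newly made DNA. They were taken here as the protein-coding genes of the mouse whose symbols begin with Hist1h, Hist2h, Hist3h or Hist4h in GENCODE release M21, on the assembly mm10. This gave 67 of 21938 protein-coding genes, with 6 genes for H1, 18 for H2A, 18 for H2B, 12 for H3 and 13 for H4. On chromosome 13, 54 of them lie between 21715763 and 23934851. Chromosome 3 holds 10 between 96219865 and 96270132, chromosome 11 holds 2 and chromosome 6 holds 1.

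Transcription of these genes rises in S phase of the cell cycle with the coactivator NPAT. Most have a short gene body without introns, and their mRNA ends in a conserved stem-loop, bound by SLBP and cut with the help of the U7 small nuclear ribonucleoprotein, rather than in a poly(A) tail. H2A and H2B genes often stand as divergent pairs that start from a shared stretch of DNA.

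Transcription start sites (TSSs) were mapped by CAGE-seq, which captures the 7-methylguanosine cap of an RNA and sequences the cDNA from its 5' end. Nuclear RNA and random priming were used, so an mRNA without a poly(A) tail can enter the library. The 3 lines compared are mouse embryonic stem cells, all grown in serum with LIF on gelatine. E14 is the wild-type line (3 libraries), and A1 (2 libraries) and C7 (3 libraries) are E14 clones in which both Pwwp2a and Pwwp2b were knocked out (DKO). A1 and C7 are each a single clone. PWWP2A and PWWP2B are readers of the histone mark H3K36me3 that form a histone deacetylase complex, and the study asked whether initiation sites change when both are lost.

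The authors merged the libraries of each line and called tag clusters, that is, groups of neighbouring start sites of the same strand. The clusters give positions only, with no signal and no read depth. They numbered 32857 in E14, 33005 in A1 and 32870 in C7. Because a line is a single merged set, no spread between replicates can be given and no test was run. Intervals printed beside shares are 95% Wilson intervals, which cover counting error only. Differences between lines can be read only against how often all coding genes differed, and effects of the knockout, the clone and the sequencing depth of a line cannot be told apart.

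The 3' stem-loop was used to check the name of the gene group. The search was for a stem of 6 bp that starts with GG and ends with CC, around a loop of 4 bases that starts with 3 T. Such a stem-loop was found, at any place in annotated transcripts, in 44 of the 67 histone genes. It was found in 28 of the 21871 other coding genes (0.128%). Of the 52 histone genes whose transcripts extend at least 40 bases past the coding sequence, 44 held it. By family these were 4 of 5 H1 genes, 11 of 11 for H2A, 10 of 14 for H2B, 8 of 10 for H3 and 11 of 12 for H4. The other 15 genes have shorter annotated ends, and none of them held it. The forms most often found are printed 5' to 3' as DNA from GENCODE transcripts, with the loop in capitals. The first stood in 26 genes of all families but H4, the second in 7 genes, all for H4, and the third in 6 genes.

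Stem-loop of 26 genes: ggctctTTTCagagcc
Stem-loop of 7 H4 genes: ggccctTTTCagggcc
Stem-loop of 6 genes: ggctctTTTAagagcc

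Promoter sequences around the dominant TSS are shown as examples of those in which promoter letters were searched. The dominant TSS is the base of a cluster from which more 5' ends arise than from any other. Each has 45 bases before the TSS and 10 from it onwards, on the gene's strand and on GRCm38, the assembly of mm10. The sequences come from RefSeq promoters and, where these end, GENCODE exons. Capitals mark TATAA, the core of the TATA box that places RNA polymerase II, where it was found from 36 to 20 bases before the TSS, and then the dominant TSS itself in E14.

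Hist1h1b (H1, chr13:21780616-21780670, minus strand): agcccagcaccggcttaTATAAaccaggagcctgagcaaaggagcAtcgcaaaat
Hist1h1d (H1, chr13:23554991-23555045, plus strand): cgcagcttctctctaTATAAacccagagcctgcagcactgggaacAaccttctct
Hist1h1c (H1, chr13:23738762-23738816, plus strand): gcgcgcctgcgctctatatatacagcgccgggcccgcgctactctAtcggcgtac
Hist1h2ah (H2A, chr13:22035587-22035641, minus strand): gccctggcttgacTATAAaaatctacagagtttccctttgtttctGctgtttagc
Hist1h2bk (H2B, chr13:22035794-22035848, plus strand): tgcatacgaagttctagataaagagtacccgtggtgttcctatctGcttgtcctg
Hist1h2bg (H2B, chr13:23571343-23571397, plus strand): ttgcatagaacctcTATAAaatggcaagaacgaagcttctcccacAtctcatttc
Hist1h3h (H3, chr13:21717583-21717637, plus strand): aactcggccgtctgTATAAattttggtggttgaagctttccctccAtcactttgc
Hist1h4b (H4, chr13:23756943-23756997, plus strand): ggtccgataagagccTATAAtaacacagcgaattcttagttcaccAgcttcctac
Hist1h4i (H4, chr13:22041353-22041407, minus strand): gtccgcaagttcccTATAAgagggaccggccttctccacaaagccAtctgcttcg

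Where TATAA is present among these promoters, it stands at nearly the same distance from the dominant TSS whatever the histone. Hist1h1c has a run of alternating T and A at the same place without the letters TATAA, and Hist1h2bk has neither.

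At least 1 tag cluster lay within 500 bp upstream of the gene start or inside the gene for 59 of the 67 histone genes (88.1%, 78.2 to 93.8%). The same 59 genes had one in E14, A1 and C7. Of all coding genes, 52.2% had a cluster in E14, 52.2% in A1 and 52.1% in C7. By family the genes with a cluster were all 6 for H1, 15 of 18 for H2A, 16 of 18 for H2B, 10 of 12 for H3 and 12 of 13 for H4. A histone gene could hold several clusters. There were 120 distinct clusters in each line, and 1 cluster lay in the windows of both Hist1h2be and Hist1h1e. In each line 26 of the 59 histone genes with a cluster held more than 1. In E14 this held for 5357 of 11450 coding genes with a cluster, a similar share.

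The 8 genes without a cluster in any line were Hist1h2ao, Hist1h2ap and Hist2h2aa1 for H2A, Hist1h2bq and Hist1h2br for H2B, Hist2h3c1 and Hist2h3c2 for H3, and Hist1h4m for H4. All of them are close copies of other histone genes. Reads were sequenced to 80 bp and only unique alignments were kept. A read that lies wholly within a stretch with an exact copy elsewhere in the genome is therefore not kept. The authors moved barcodes out of the reads before mapping, so mapped reads can be shorter than the 80 bases counted here. In each of these 8 genes, every stretch of 80 bases of the coding sequence also occurs in a transcript of another gene at another place in the genome. Overlapping annotations of the same place were not counted as copies. Of the 59 genes with a cluster this held for 4, namely Hist1h4n, Hist1h2ag, Hist1h2ad and Hist2h2aa2. The median share of such stretches was 64.2% in genes with a cluster and 100% in those without. The first 80 bases of the annotated transcript, where a read from the gene start would lie, recurred in another gene for only 4 of the 8. These were Hist1h2bq, Hist1h2ao, Hist2h3c2 and Hist2h3c1. Among genes with a cluster this held for 7 of 59. Both counts include overlapping annotations of the same place, and the match of Hist2h3c1 is of that kind. The part of these shared stretches in the missing clusters was not tested, and neither was transcription of the 8 genes. Pooled over all coding stretches of a family, rather than taken per gene, the share with a copy was 8.4% in H1, 66.9% in H2A, 58.8% in H2B, 77.5% in H3 and 52.9% in H4.

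Initiation at histone promoters was sharply focused. Width was measured as the interquantile width, the span that holds the 5' ends of a cluster between the 0.1 and 0.9 quantiles. The main cluster of a gene was the one with the dominant TSS nearest to the gene start. The median interquantile width was 4 bp in each of E14, A1 and C7 (n = 59 genes), and the quartiles in E14 were 3 and 5 bp. For all coding genes with a cluster the median was 28 bp in E14 (n = 11450), 28 bp in A1 (n = 11452) and 29 bp in C7 (n = 11433). Widths of at most 10 bp were found for 50 of 59 histone genes in every line (84.7%, 73.5 to 91.8%). Among all coding genes the share was 22.6% in E14, 22.3% in A1 and 22.2% in C7.

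**Figure D1:**
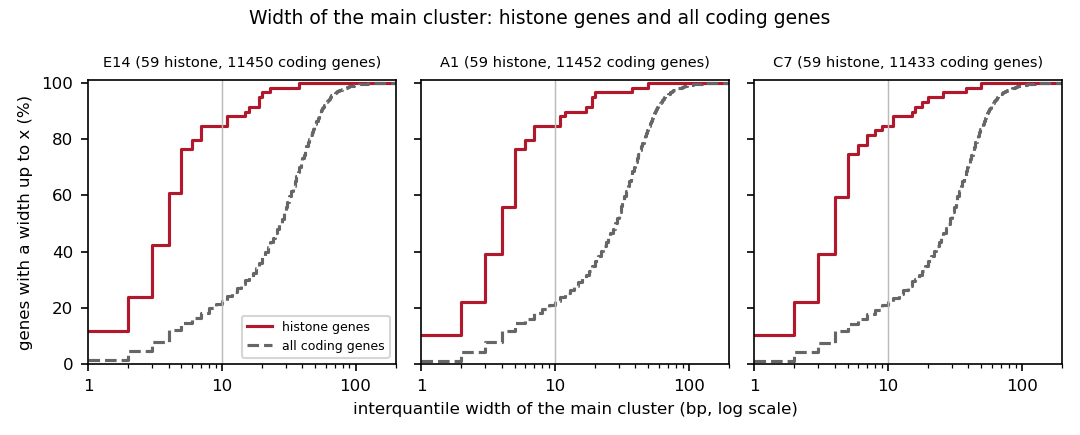
Cumulative share of genes (y, percent) by interquantile width of the main cluster (x, bp, log scale) in E14, A1 and C7, for histone genes (solid line) and all coding genes with a cluster (dashed line). The grey line marks 10 bp, below or at which 84.7% of histone genes lay in each line.

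The whole clusters were not short. From first to last TSS the main histone clusters spanned a median of 45 bp, against 49 bp for all coding genes in E14. Only 11.9% of histone genes had a whole cluster of at most 10 bp, against 16.9% of all coding genes in E14. By the medians the histone clusters were thus narrow in the span that holds most 5' ends and not in their whole length. At some genes both widths were equal, as at Hist1h4a (38 bp) and Hist1h2ae (20 bp).

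Narrow main clusters were found in all 5 families. The median width in E14 was 4 bp for H1, 5 bp for H2A, 4 bp for H2B, 3.5 bp for H3 and 2.5 bp for H4. All 6 H1 genes and all 10 H3 genes with a cluster were at or below 10 bp, as were 12 of 15 H2A, 12 of 16 H2B and 10 of 12 H4 genes. The narrowest were 1 bp wide, and 5 of these are Hist1h1c, Hist1h2bk, Hist1h3a, Hist1h4b and Hist1h4i. The sequences of 4 of them are printed above. Hist1h4b and Hist1h4i have TATAA 30 and 31 bases before the single dominant base, and Hist1h1c and Hist1h2bk have no such match.

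The widest main clusters in E14 were those of Hist1h4a (38 bp), Hist2h2ab (23 bp), Hist1h2ae (20 bp), Hist1h2be (19 bp) and Hist2h2bb (19 bp). At 4 of these genes another cluster was narrower. Hist1h2ae had a cluster of interquantile width 2 bp and whole width 105 bp with its dominant TSS 61 bp past the gene start. Hist2h2bb had one with an interquantile width of 5 bp. Hist1h4a had one of 3 bp, 52 bp past its start. At Hist1h2be, the main cluster is the one shared with the window of Hist1h1e, and a cluster of 1 bp lay 35134 bp past the gene start. The latter is intronic in GENCODE and lies 20 bp from a second start of the gene in RefSeq. When the widest whole cluster was taken as the main one, 53 of 59 histone genes (89.8%) were at or below 10 bp and the median stayed at 4 bp.

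**Figure D2:**
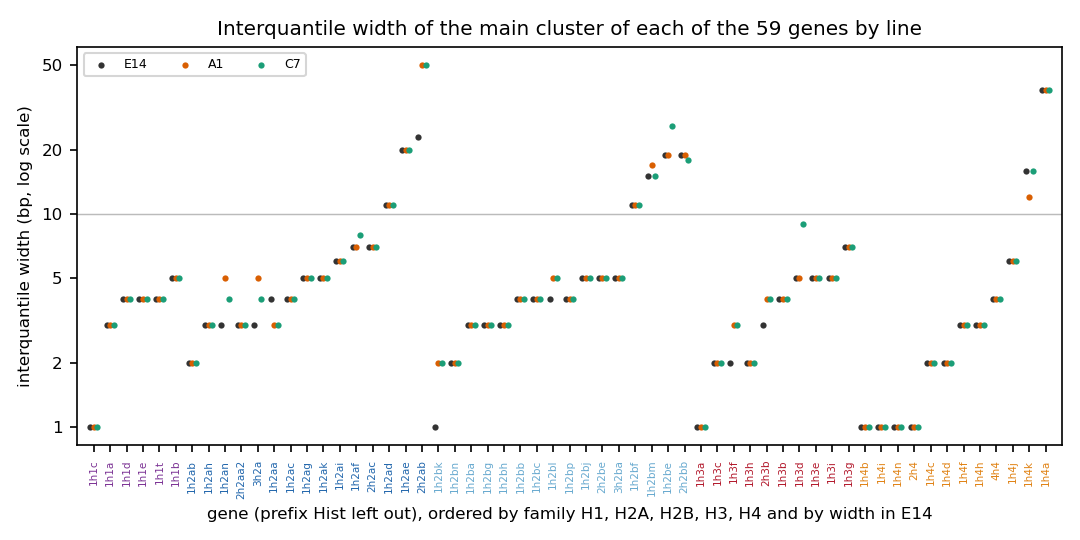
Interquantile width of the main cluster (y, bp, log scale, with a grey line at 10 bp) for each of the 59 histone genes with a cluster (x, grouped by family and ordered by width in E14), with 1 point per line. In 45 genes the widths were equal in E14, A1 and C7, and the wide exceptions lie in H2A, H2B and H4.

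Dominant TSSs lay close to the annotated gene starts. The median offset in E14 was -2 bp, where a negative value is upstream, and the quartiles were -23.5 and 8 bp. For 34 genes the dominant TSS was upstream of the annotated start, for 7 at it and for 18 past it, and for 54 it was within 50 bp. Among the 11450 coding genes with a cluster in E14 the median offset was 32 bp. There the dominant TSS was upstream for 1733, at the start for 627, past it for 9090 and within 50 bp for 6692. Taking the cluster nearest to the gene start as the main one favours small offsets in both sets. Relative to the annotated start, H2A genes had the median furthest upstream, at -25 bp. Some H2A genes are annotated from the first coding base, as Hist1h2ai, Hist1h2ak and Hist1h2an (gene of 393 bp, coding sequence of 390 bp). Offsets of such genes depend on where the annotation begins. The 5 histone genes not within 50 bp were Hist1h1d, Hist1h3f, Hist1h3b, Hist1h3c and Hist1h2ba, with the dominant TSS at 1774, 412, 81, 81 and -64 bp. Hist1h1d has an annotated gene of 7425 bp, and its dominant TSS lay 4 bp from the start of the same gene in RefSeq.

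The core letters of the TATA box stood at a narrow range of distances before the dominant TSS, in some genes of every histone family. The letters TATAA, searched on the strand of the gene with the first T from 36 to 20 bases before the dominant TSS, were present in 30 of the 56 histone genes whose sequence could be read in E14 (53.6%). Among all coding genes they were present in 286 of 9518 (3%). TATAAA, which contains TATAA, was present in 20 histone genes (35.7%) and 1.83% of all coding genes. In A1 and C7 the count was 30 of 56 as well. The share was 5 of 6 for H1, 10 of 15 for H2A, 4 of 15 for H2B, 4 of 9 for H3 and 7 of 11 for H4.

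The first T lay from 33 to 28 bases before the dominant TSS in all 30 genes, and from 32 to 29 bases before it in 27. The search window was wider than this range on both sides. The median interquantile width in E14 was 3.5 bp in histone genes with TATAA and 5 bp in those without. Over all coding genes it was 4 bp with TATAA and 29 bp without, so histone genes without these letters were still narrower than coding genes without them. A match to these letters is not proof of a bound site.

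**Figure D3:**
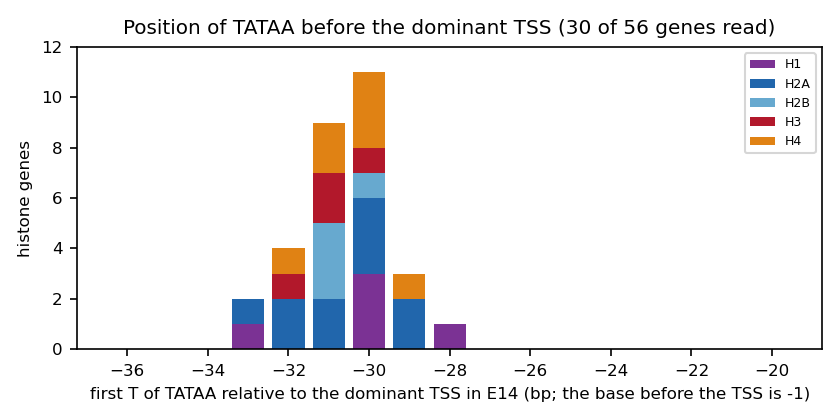
Number of histone genes (y) by the position of the first T of TATAA relative to the dominant TSS in E14 (x, bp, from -36 to -20), coloured by histone family. The 30 genes fall between -33 and -28.

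The base at the dominant TSS and the base before it did not set histone genes apart. A pyrimidine followed by a purine, the usual initiator step, stood there in 46 of 56 histone genes in E14 (82.1%) and in 83.1% of all coding genes. The step CA stood in 15 (26.8%) and 35.9%.

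Other promoter letters followed the histone families. The search used the 300 bases from 250 before to 50 after the RefSeq gene start, where 62 of the 67 histone genes were matched. CCAAT, the site of NF-Y, was present on either strand in 53 of 62 histone promoters (85.5%) against 38.2% of 21263 promoters. It was found in all 6 H1, 18 H2A, 16 H2B and 10 H3 promoters and in 3 of 12 for H4. The octamer ATTTGCAT, known from H2B promoters as a site of POU2F1, was present in 14 histone promoters (22.6%) against 1.66% of all. These were 7 of 16 H2B and 7 of 18 H2A promoters, and none for H1, H3 or H4. Promoters of a divergent H2A and H2B pair overlap, so an octamer between the genes can count for both.

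Inside the gene body, the linker histone genes differed from the core histone genes. Clusters with a dominant TSS more than 100 bp past the annotated gene start numbered 42 in E14, 42 in A1 and 41 in C7. In E14, 36 of them lay in coding sequence, 5 in an untranslated exon and 1 in an intron, the last being that of Hist1h2be near a RefSeq start. The 36 coding clusters belonged to 12 of the 59 genes (20.3%, 12 to 32.3%), and 11.9% of all coding genes had such a cluster away from annotated transcript starts. Per kilobase of coding sequence there were 1.53 in histone genes and 0.176 in all coding genes with a cluster. The replacement histones, which lie outside the gene group and are described further on, had 1.54 per kilobase in 5 of 11 genes (45.5%, 21.3 to 72%) in E14, so this density was not particular to the replication-dependent genes. The median interquantile width of these coding clusters in E14 was 8.5 bp in the replication-dependent genes, 6 bp in all coding genes and 3.5 bp in the replacement histones.

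H1 genes held 27 of the 36 coding clusters, 6.94 per kilobase. H2A genes had 0.685 and H2B genes 0.657 per kilobase, H4 genes had 0.27 and H3 genes had none. More of the H1 coding sequence is free of copies elsewhere, so the clusters were also counted per 1000 stretches of 80 bases without a copy in a transcript from another place in the genome. The values were then 8.63 for H1, 2.16 for H2A, 1.78 for H2B, 0.711 for H4 and 0 for H3. The order of the families was the same on both scales. Clusters in coding sequence up to 100 bp past the gene start are left out of both. In E14 such clusters lay 44 bp past the start of Hist1h3e for H3. For H4 they lay at 14 bp in Hist1h4k, 65 bp in Hist2h4 and 89 bp in Hist1h4d, and others lay in H1, H2A and H2B genes. The 0 for H3 and the order of the core families thus hold only beyond 100 bp. The first 80 bases from the dominant TSS had no such copy for any of the 36 clusters in E14. In C7 the cluster of Hist1h2bl, 153 bp past the gene start, had one.

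Hist1h1b and Hist1h1e had the most. In Hist1h1b, 8 coding clusters in E14 lay from 115 to 539 bp past the gene start. In Hist1h1e, 8 lay from 126 to 560 bp, and a further cluster at 1453 bp in untranslated sequence is the one shared with Hist1h2be. Of the 11450 coding genes with a cluster, 71 had more coding clusters than these H1 genes. Hist1h1c had 4 in coding sequence, the first at 128 bp, and Hist1h1d had 4 reaching to 2254 bp from its early annotated start. Hist1h1a had 3, from 350 to 472 bp. Hist1h1t, the linker histone of the testis, had none beyond 100 bp. Among core histone genes, Hist1h2af and Hist1h2bf had 2 each, and Hist1h2bl, Hist1h2ak, Hist1h2ae, Hist1h4a and Hist2h2bb had 1 each.

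**Figure D4:**
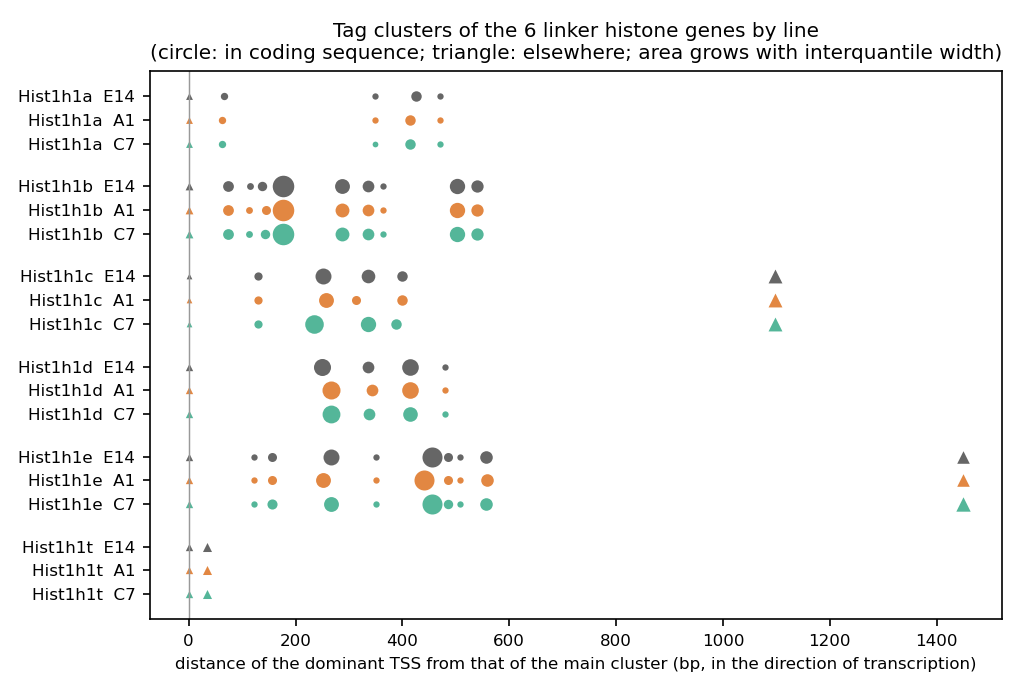
Tag clusters of the 6 H1 genes (rows) in E14, A1 and C7, placed by the distance of their dominant TSS from that of the main cluster of the gene (x, bp). Circles are clusters in coding sequence, triangles are others, and the area of a symbol grows with its interquantile width. Hist1h1b and Hist1h1e have the most circles and Hist1h1t has none.

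Some coding clusters lay at the same place in different H1 genes. Clusters of Hist1h1a, Hist1h1e and Hist1h1b had their dominant TSS at the same base of a shared stretch, 350, 354 and 364 bp past the respective gene starts, and this base was the same in E14, A1 and C7. Each was 2 bp wide in E14. The 15 bases around the TSS, 9 before it and 6 from it onwards, were identical in the 3 genes. Hist1h1c had its dominant TSS at the matching base, 334 bp past its start, in E14 and C7, with a sequence that is not identical over the 15 bases. Its cluster was wider, with 23 bp in E14 and 30 bp in C7, and in A1 the dominant TSS lay at 312 bp. The coding sequences are shown on the strand of each gene, with the dominant TSS in capitals.

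Hist1h1a (chr13:23763971-23764025, plus strand): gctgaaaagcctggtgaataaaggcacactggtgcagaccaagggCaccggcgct
Hist1h1e (chr13:23622195-23622249, minus strand): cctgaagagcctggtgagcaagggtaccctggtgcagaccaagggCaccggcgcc
Hist1h1b (chr13:21780252-21780306, minus strand): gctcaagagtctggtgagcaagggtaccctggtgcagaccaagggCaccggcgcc
Hist1h1c (chr13:23739097-23739151, plus strand): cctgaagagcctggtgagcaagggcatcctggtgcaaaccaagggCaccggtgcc

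A second such place was found in Hist1h1c and Hist1h1e in E14, 250 and 270 bp past their starts, each with an interquantile width of 33 bp. The genes with their dominant TSS at this base differed between the lines. In A1 it was Hist1h1d alone, 2040 bp past its annotated start, and in C7 Hist1h1e and Hist1h1d. The dominant TSS of Hist1h1c lay at 256 bp in A1 and 234 bp in C7, that of Hist1h1e at 254 bp in A1, and that of Hist1h1d at 2024 bp in E14. The step from G to C seen at the first place differs from the pyrimidine and purine of the promoters. Over all 36 coding clusters of histone genes, a pyrimidine and purine stood at the dominant TSS in 10 in E14 (27.8%), 14 in A1 (38.9%) and 15 of 35 in C7 (42.9%). Over coding clusters of all genes the share was 11.5% in E14. TATAA stood before none of the histone coding clusters, and before 0.898% of those of all coding genes in E14. The histone coding clusters thus differed in these letters from the histone promoters, and how they arise was not tested.

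By an overlap of at least 1 bp, each of the 120 histone clusters in a line had a partner in each of the other two. Under a reciprocal overlap of 50%, 9 of the 360 clusters of the 3 lines lacked one, because whole widths could differ. A cluster of Hist1h4a, for example, spanned 42 bp in E14 and 13 bp in A1 and C7. For no histone gene did the number of clusters differ between lines, where all coding genes differed in 2.95% of cases for E14 against A1, 2.53% for E14 against C7 and 3.18% for A1 against C7. The start and end of the main cluster were the same in all 3 lines for all 59 genes. Among all coding genes they differed in 1.52%, 0.849% and 1.8% for the same comparisons. The comparisons of A1 and C7 with E14 share the E14 set and are not independent.

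The dominant TSS was at the same base in all 3 lines for 54 of the 59 genes. It differed for 3 genes (5.08%) between E14 and A1, where 19.2% of all coding genes differed. Between E14 and C7 it differed for 5 (8.47%, all coding genes 17.5%), and between A1 and C7 for 3 (5.08%, all coding genes 20.9%). These shares were below the background in each comparison, and that between the clones was of the same size as that between E14 and A1. The shares were also below the background among narrow clusters alone. Among genes with a main cluster of at most 10 bp in E14, 3 of 50 histone genes (6%) and 19.7% of 2573 coding genes differed between E14 and A1. Between E14 and C7 these were 3 of 50 (6%) and 17.3% of 2567. Between A1 and C7, with the width taken in A1, they were 1 of 50 (2%) and 22.4% of 2527. A move of more than 5 bp was found for 0 genes, 2 genes and 2 genes in the 3 comparisons, against 12%, 11.3% and 13.2% of all coding genes.

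The genes that moved most were few. At Hist1h2ae the dominant TSS lay 32 bp past the gene start in E14 and A1 and 16 bp past it in C7. At Hist1h2ad it lay at 15, 15 and 5 bp in E14, A1 and C7. Both are H2A genes with a wide main cluster and a narrow one nearby, and both moves were in C7 alone. Hist2h2ac moved from -13 bp in E14 to -8 bp in both clones, and Hist1h3i from -30 bp to -27 bp in both. Hist2h2aa2 lay at -44, -46 and -45 bp.

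The interquantile width differed for 10 of 59 genes between E14 and A1 (16.9%, all coding genes 46%), for 12 between E14 and C7 (20.3%, all coding genes 43.9%) and for 8 between A1 and C7 (13.6%, all coding genes 46.7%). In 45 genes (76.3%) it was equal in all lines, against 41.1% of all coding genes. It was larger in both clones than in E14 for 7 genes (11.9%, all coding genes 19.5%) and smaller in both for 1 (1.69%, all coding genes 5.8%). A narrow cluster can change its width only within few bases, so the comparison was repeated among genes with a main cluster of at most 10 bp in E14. There the width differed for 7 of 50 histone genes (14%) and 22.7% of coding genes between E14 and A1. Between E14 and C7 it differed for 9 of 50 (18%) and 20.7%. Between A1 and C7, with the width taken in A1, it differed for 4 of 50 (8%) and 21.3%. The share was thus near the background for E14 with C7 and further below it for the other comparisons. Hist2h2ab had the largest change, with 23 bp in E14 and 50 bp in both A1 and C7, while its dominant TSS stayed 20 bp past the gene start.

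The dominant TSS of coding clusters differed between lines more often than that of main clusters. Coding clusters were also wider, with a median of 8.5 bp in E14 against 4 bp for main clusters. They were not compared by width, so the part of width was not tested. The dominant TSS of a coding cluster was at a different base for 15 of 36 between E14 and A1 (41.7%), against 25.9% of coding clusters of all genes. Between E14 and C7 it was 15 of 36 (41.7%, all genes 23.7%) and between A1 and C7 13 of 36 (36.1%, all genes 28.2%). In H1 genes 12 of 27 moved in A1 and 10 of 27 in C7. The clones differed from each other about as often as from E14. The largest move in Hist1h1c was 22 bp in A1 and 16 bp in C7, and in Hist1h1d 16 bp in both. The coding cluster of Hist1h4a had its dominant TSS 137 bp past the gene start in E14 and 108 bp in A1. In C7 it lay at 96 bp, which is why C7 had 1 downstream cluster fewer although the cluster itself was present.

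Divergent pairs were taken as histone genes on opposite strands whose starts are at most 1000 bp apart and point away from each other. There were 13, of which 12 join an H2A and an H2B gene and 1 joins Hist1h2bh and Hist1h3f. In 11 pairs (84.6%, 57.8 to 95.7%) both genes had a cluster in every line, and no pair had a cluster on one side only. The other pairs, Hist1h2bq with Hist1h2ao and Hist1h2ap with Hist1h2br, consist of the copies named above. Among all coding genes 592 of 754 pairs (78.5%) had clusters at both genes in E14 and 128 had one on a single side.

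The dominant TSSs of a histone pair were a median of 237 bp apart in E14, from 189 to 1072 bp, and the median was 220 bp for all coding pairs. The distance was thus near that of other divergent genes while the clusters were narrower, with a median of 4 bp in histone pairs and 31 bp in all coding pairs. The pairs with the shortest distance in E14 were Hist1h2bf with Hist1h2ad (189 bp), Hist1h2ae with Hist1h2bg (200 bp), Hist1h2bl with Hist1h2ai (208 bp) and Hist1h2ba with Hist1h2aa (217 bp). In C7 the first fell to 179 bp and the second to 184 bp, through the moves of Hist1h2ad and Hist1h2ae, and in A1 both were as in E14. With the widest cluster as the main one, these pairs were 236 and 229 bp apart in all lines, so that neither the fall in C7 nor their place as the closest pairs was seen, and Hist1h2bl with Hist1h2ai (208 bp) was the closest. Histone genes inside and outside a pair had the same median width of 4 bp in E14.

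**Figure D5:**
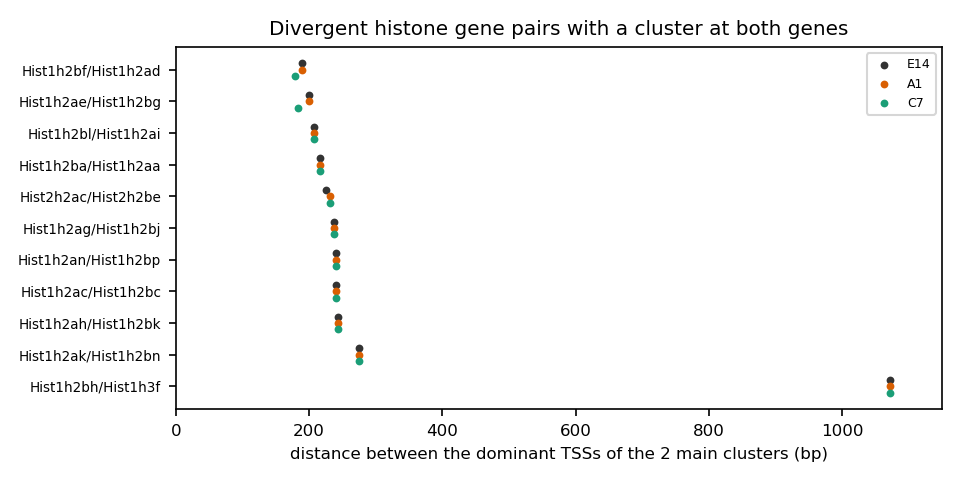
Distance between the dominant TSSs of the main clusters (x, bp) for the 11 divergent histone pairs with a cluster at both genes (rows), with 1 point per line. Apart from Hist1h2bh and Hist1h3f at 1072 bp, pairs lie between 179 and 275 bp.

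The histone genes of the testis type, Hist1h1t, Hist1h2aa and Hist1h2ba, had clusters in the stem cells in every line. Their main clusters in E14 were 4, 4 and 3 bp wide, and TATAA stood 30, 32 and 30 bases before the dominant TSS. Positions alone do not give their level.

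Replacement and variant histones, whose genes are as a rule not limited to S phase, lie outside the gene group. Of 12 genes in the annotation, 11 had a cluster in each line and H1foo, the oocyte linker histone, had none. Their median width was 5 bp, and 63.6% were at or below 10 bp in E14 and A1 and 54.5% in C7. H2afx and H3f3a had 5 bp, H3f3b 5 bp, H2afz 3 bp and H1fx 2 bp in every line. H1f0 had 4, 5 and 4 bp in E14, A1 and C7. Broad main clusters were found at 4 genes. H2afv, a second gene of the H2A.Z type, had 40, 56 and 47 bp, and H2afy2, a macroH2A gene, had 42, 42 and 45 bp. H2afj had 71, 70 and 71 bp and Cenpa, the histone of centromeres, 45, 43 and 45 bp. H2afy had 10, 10 and 11 bp. Narrow main clusters were thus also present at several histone genes outside the replication-dependent group. H2afx had 6, 5 and 6 clusters, H2afz 4, 3 and 4, H2afy 5, 6 and 5 and Cenpa 2, 3 and 2 in E14, A1 and C7. Only H2afx among the 12 had the stem-loop letters.

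The factors that transcribe and process histone mRNA had broad promoters. All 22 of these genes in the annotation had a cluster in every line, with a median width of 31.5 bp in E14, and 13.6% were at or below 10 bp. Slbp, the stem-loop binding protein, had 26, 30 and 26 bp in E14, A1 and C7. Npat had 32, 32 and 29 bp. Of the U7 subunits Lsm10 had 47 bp and Lsm11 18 bp in all lines, and Casp8ap2, a partner of NPAT, had 40 bp. The width of these factors was near the 28 bp of all coding genes.

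The knocked-out genes were looked up as a check of the labels. Pwwp2a had 2 clusters in every line, with the main one 36, 36 and 35 bp wide in E14, A1 and C7. Pwwp2b had none in any line, E14 included. A cluster at the start of a gene says nothing of an edit further in, so neither value tests the genotype. All 7 markers of pluripotent stem cells had clusters in each line. Of 3 endoderm markers only Sox17 had one, of 3 neural markers 2 did and of 3 mesoderm markers none did. All 3 fibroblast markers, set for feeder cells, had a cluster in each line, and with positions only their level, and their part in the histone results, was not tested.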

How the data were processed

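CAGE-seq of nuclear RNA was analysed for 3 E14, 2 A1 and 3 C7 libraries. The authors mapped reads with STAR 2.4.2a to mm10, and the labels also name SAMtools 1.3 and bedtools 2.17.0. They kept unique alignments, merged the libraries of each line, applied a power-law normalization and used CAGEr to call clusters. From the deposited clusters, the values taken were coordinates of clusters, dominant TSSs and interquantile blocks. The score deposited by the authors is 0 in all clusters and was not used. Depth is not in the clusters, and the minimum signal of a cluster is not given in the sources used here.

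Clusters were assigned to GENCODE M21 genes by strand and dominant TSS with Python 3.11.15 and NumPy 2.4.6, and drawn with Matplotlib 3.10.9. Sequences came from RefSeq promoters and GENCODE transcripts, which were the same at all 1541677 bases held by both. Windows were read for 94.9% of histone and 83.1% of all coding genes with a cluster in E14. The code for the assignment was checked on simulated clusters placed near gene starts, and 1097 of 1097 genes were recovered. This checks that positions and widths are read back, and not how well real clusters are assigned. There were 0 columns of other samples.

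The gene group, lists and measures were chosen with earlier results of these data known. Genes named are those without a cluster or with downstream clusters, the 5 narrowest and 5 widest main clusters, the 5 largest moves, the 4 closest pairs, and preset names from the lists. H2afy, H2afy2, H2afj, Cenpa and the genes with offsets over 50 bp were named after their values were seen. Listed processing factors and replacement histones that are absent from the annotation under the names used were left out. Alternatives covered the window, the width, the choice of main cluster, the downstream distance, the pair distance and the overlap rule.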

Additional observations from a re-analysis of the deposited data

How the results depend on the processing

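Of 70 alternative values for 19 results, 54 kept within the limits set and 16 moved, with none reversed. With the whole cluster in place of the interquantile width, the median was 45 bp in each line and the share at or below 10 bp was 11.9%. With a threshold of 20 bp the share was 96.6% in E14 and A1 and 94.9% in C7. On the opposite strand 5 downstream clusters were found in each line. Allowing gene starts up to 2000 bp apart gave 17 pairs of 21 with both genes. Under a reciprocal overlap of 50%, 9 of 360 clusters, counted over the lines, lacked a partner in another line, against 0. Without the genes whose first 80 bases recur in a transcript of another gene, overlapping annotations included, 52 of 56 had a cluster. Chosen after seeing the data were the median with the main cluster nearest any GENCODE or RefSeq start (4 bp) and the share with the widest cluster as the main one (89.8%). So were downstream clusters counted with these starts added (41, 41 and 40 in E14, A1 and C7). The clusters of Hist1h1d and Hist1h2be lie 4 and 20 bp from a RefSeq start, and these counts do not leave out both. The last such choice was the comparison of lines among main clusters of at most 10 bp. There the dominant TSS was the same in 47 of 50 histone genes for E14 with A1 and with C7, and 49 of 50 for A1 with C7.

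From the clusters used here no paired analysis was possible, because the libraries of each line were merged before the clusters were called. For the same reason no library was left out in turn. Depth and signal are not in the clusters, so the presence of a cluster gives no level and its absence no limit.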
